A study of Homo sapiens with 6 samples.

Results

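The hypoxia-inducible factor (HIF) genes described here are 10 genes out of the 49278 named genes of the expression table, taken by their symbols: the HIF alpha subunit genes HIF1A and EPAS1, the prolyl hydroxylase genes EGLN1 and EGLN3, and the HIF target genes VEGFA, CA9, BNIP3, ADM, ANKRD37 and NDRG1, none of which acts in glycolysis. RNA was sequenced from HUES8 cells, an established human ESC line, after 3 days of differentiation towards definitive endoderm (DE) in DMEM with 100 ng/mL Activin A, bovine serum albumin and penicillin/streptomycin. There were 2 libraries of wild-type (WT) cells, 2 of PDHB+/- clone 1 and 2 of PDHB+/- clone 2. PDHB encodes the E1 beta subunit of pyruvate dehydrogenase, the enzyme that turns pyruvate into acetyl-CoA in mitochondria, and the PDHB+/- lines, heterozygous for PDHB, were made with CRISPR/Cas9. Each PDHB+/- line is a single clone, and the labels do not say whether the replicates of a line came from separate cultures, so the p-values measure the spread between these libraries, which may be technical. All groups received the same medium, and the labels name no culture under low oxygen.

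HIF is a transcription factor made of an alpha subunit, HIF1A or EPAS1 (also called HIF2A), and the beta subunit ARNT. In oxygenated cells the prolyl hydroxylases EGLN1 (PHD2) and EGLN3 (PHD3) hydroxylate the alpha subunit, using oxygen, iron and 2-oxoglutarate, and the hydroxylated protein is bound by VHL and degraded. When hydroxylation falls, HIF binds short elements with the core ACGTG or GCGTG and raises its targets, EGLN3 and EGLN1 among them. RNA levels as measured here do not show the amount or the hydroxylation of the HIF proteins.

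PDHB was measured at 369 and 362 TPM in the WT libraries, at 178 and 166 TPM in clone 1, and at 200 and 157 TPM in clone 2, so that every PDHB+/- library lay below both WT libraries. The genes counted gave between 11365365 reads and 14312650 reads per library, worked out from the deposited TPM values, which are scaled by gene length and by library, and 3 reads on a gene of 1000 bases corresponded to 0.522 to 0.638 TPM. The DE markers SOX17, at 429 to 774 TPM, EOMES, at 561 to 927 TPM, and FOXA2, at 119 to 147 TPM, were present in all 6 libraries. Of the 10 DE markers 2 rose, SOX17 and EOMES, and 1 fell, GSC, a share close to the 31.7% of all tested genes called, and with median-of-ratios scaling or quantile normalization 2 were higher and 3 lower. CXCR4, a surface marker of DE, was at 359 and 367 TPM in WT and at 143 to 280 TPM in PDHB+/- libraries and did not pass (log2 fold change -0.86, limma adjusted p = 0.056). The summed level of the DE markers was 16219 to 16424 TPM in WT and 11304 to 15404 TPM in PDHB+/- libraries, most of it from CER1, whose mean was 13728 TPM in WT and 9973 TPM in PDHB+/- cells and which was not called (limma adjusted p = 0.095). The part of this shift in the levels of the HIF genes was not tested. Fold changes are log2 fold changes of TPM + 1 fitted with limma over the 17291 genes that averaged 1 TPM or more across the libraries, and a gene was called at a Benjamini-Hochberg adjusted p under 0.05. The median over all tested genes was 0.13 in PDHB+/- against WT. With median-of-ratios scaling this median was 0.00, and the share of higher genes among all called genes went from 72.0% to 49.5%. In bulk RNA, fewer cells that express a gene and less RNA per cell cannot be told apart.

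Members of the pathway moved in both directions in PDHB+/- cells. EGLN3, EPAS1, NDRG1, ADM and EGLN1 were higher, VEGFA and BNIP3 were lower, HIF1A was not called, and CA9 and ANKRD37 were too low to test. Of the 10 members 8 were tested. EPAS1 entered the test only through its level in the PDHB+/- libraries, so a difference was built in. It is left out of the counts of calls against WT that follow, except where a count is given with EPAS1. Of the 7 members that averaged 1 TPM or more in both groups, 4 were called higher and 2 lower, and with median-of-ratios scaling 2 higher and 2 lower. Of all tested genes 31.7% were called, 22.8% higher and 8.86% lower, and of the 16214 with 1 TPM or more in both groups 31.3% were called, 22.7% higher and 8.59% lower. The PDHB+/- and WT libraries did not overlap for any of the 7, which was also the case for 54.4% of those 16214 genes.

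**Figure D1:**
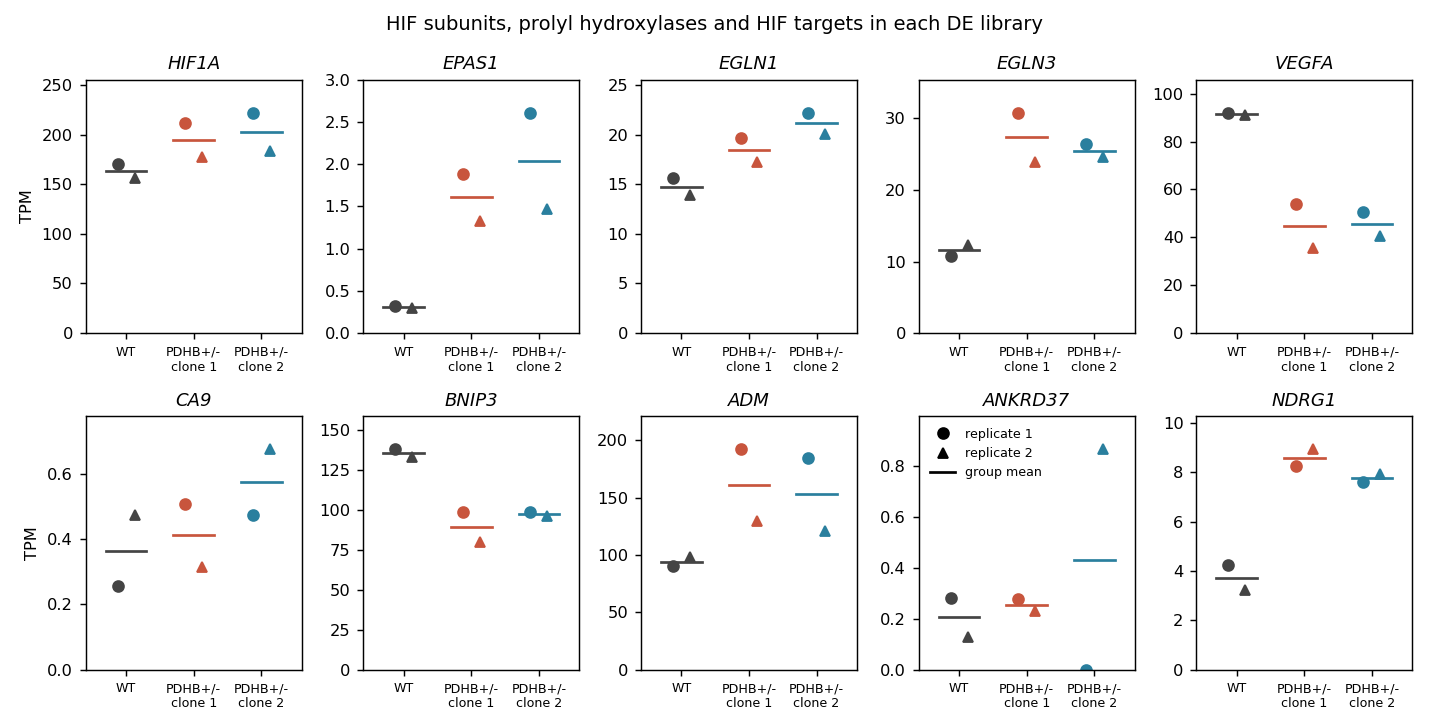
TPM of the 10 members in each library (vertical axes from 0, each with its own scale), with points for single libraries, circles for replicate 1, triangles for replicate 2 and a line for the group mean. EGLN3 rises from 10.8 and 12.3 TPM in WT to between 23.9 and 30.8 TPM in PDHB+/- libraries, while VEGFA falls from 92.0 and 91.0 TPM to between 35.6 and 53.8 TPM.

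The promoters of the members that were called, as far as the RefSeq table holds them, are shown here because they carry or lack the core of the HIF element. The stretches come from the 250 bases before the RefSeq start on GRCh38.p14, are read 5′ to 3′ on the strand of the gene, and leave out bases that GENCODE v44 annotates as exon. Capitals mark ACGTG or GCGTG on either strand, that is also CACGT and CACGC.
BNIP3, chr10:131981968-131982173, minus strand: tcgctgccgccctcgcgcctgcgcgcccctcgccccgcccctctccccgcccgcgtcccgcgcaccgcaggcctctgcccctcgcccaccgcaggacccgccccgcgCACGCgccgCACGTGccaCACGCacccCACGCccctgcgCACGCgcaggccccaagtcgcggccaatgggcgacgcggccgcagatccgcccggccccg
EGLN3, chr14:33951082-33951324, minus strand: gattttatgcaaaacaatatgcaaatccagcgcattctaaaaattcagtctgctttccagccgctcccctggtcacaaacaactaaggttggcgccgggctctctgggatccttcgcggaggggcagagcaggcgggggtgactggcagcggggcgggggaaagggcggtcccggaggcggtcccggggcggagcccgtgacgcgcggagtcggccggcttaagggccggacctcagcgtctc
EGLN1, chr1:231422288-231422537, minus strand: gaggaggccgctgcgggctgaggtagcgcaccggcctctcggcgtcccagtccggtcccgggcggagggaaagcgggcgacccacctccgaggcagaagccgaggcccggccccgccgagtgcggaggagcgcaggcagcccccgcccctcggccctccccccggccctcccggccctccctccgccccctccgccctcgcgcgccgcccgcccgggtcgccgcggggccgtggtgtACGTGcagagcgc
ADM, chr11:10304878-10305072, plus strand: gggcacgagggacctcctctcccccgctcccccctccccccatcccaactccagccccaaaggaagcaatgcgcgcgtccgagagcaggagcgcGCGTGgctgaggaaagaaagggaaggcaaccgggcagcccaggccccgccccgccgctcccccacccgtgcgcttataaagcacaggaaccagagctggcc
EPAS1, chr2:46297157-46297406, plus strand: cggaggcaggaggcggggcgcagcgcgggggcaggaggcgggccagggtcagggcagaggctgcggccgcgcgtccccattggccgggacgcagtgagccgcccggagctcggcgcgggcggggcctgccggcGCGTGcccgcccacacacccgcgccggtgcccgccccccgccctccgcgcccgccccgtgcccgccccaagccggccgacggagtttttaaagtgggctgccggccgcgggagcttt

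The windows of 8 members were in the table, 9 windows in all since HIF1A has 2, and VEGFA and NDRG1 had no entry. BNIP3 held 6 matches between 143 and 104 bases before its start, of which CACGTG, which reads the same on both strands, gave 2 that overlap. ANKRD37 held 3 matches, and HIF1A, EPAS1, EGLN1, CA9 and ADM 1 each. EGLN3 held 0 in this window, which says only that these letters do not occur there. In all, 7 of the 9 windows held a match. The same letters occurred in 43.2% of all 35116 promoter windows of this length. With 1 window per gene, they occurred in 57.3% of the 10960 windows of tested genes with an entry. The 9 windows of the members count HIF1A with 2 and include CA9 and ANKRD37, which were not tested. A match is a description of the letters and not a binding site. BNIP3 with 6 matches fell, while EGLN3 with 0 and EGLN1, ADM and EPAS1 with 1 each rose. BNIP3 was the only lower member with a window, so the counts of matches cannot be set against direction.

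HIF1A, which encodes the oxygen-labile alpha subunit present in most cells, is located in hg38 on chromosome 14, 61695513 to 61748259, plus strand (ENSG00000100644.17). Its level was at 170 and 156 TPM in WT, at 212 and 177 TPM in clone 1, and at 222 and 183 TPM in clone 2. All 4 PDHB+/- libraries lay above both WT libraries, and the replicate 2 libraries of the clones lay close to the higher WT library. The log2 fold change of HIF1A was 0.28 (standard error 0.11, 95% interval 0.02 to 0.54), and the limma adjusted p of 0.097 did not pass. Of its exonic bases, 11.3% are shared with other genes, HIF1A-AS3 and HIF1A-AS1 on the other strand among them. HIF1A was the most abundant member per length in WT cells.

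EPAS1, the alpha subunit gene best known from endothelial cells and from control of erythropoietin, is on chromosome 2 (46293667 to 46386697, plus strand, ENSG00000116016.14). EPAS1 was measured at 0.315 and 0.30 TPM in WT, at 1.89 and 1.33 TPM in clone 1, and at 2.61 and 1.47 TPM in clone 2. These values rest on 26 to 234 reads per library. Every PDHB+/- library was above both WT libraries, yet EPAS1 remained far below HIF1A in all 6. As a share of all reads on genes, EPAS1 was 5.42 times higher over the PDHB+/- libraries than over the WT libraries. On the log2(TPM + 1) scale, which understates changes of low genes, the difference was 1.09 (standard error 0.22, limma adjusted p = 0.010). Since EPAS1 passed the minimum only through the PDHB+/- libraries, a difference was built in, and its p-values are no support for one. Limma voom on the recovered reads, chosen after seeing the data, gave 2.38, and without WT replicate 1 or 2 the adjusted p was 0.067 and 0.072. The length that fits the counts of EPAS1 is 17584 bases against 7291 exonic bases in GENCODE v44, so its TPM would be higher on the GENCODE length. Because EPAS1 is an endothelial gene, the 6 endothelial and blood markers were read beside it. KDR and TEK rose, the only 2 tested, beside 31.7% of all tested genes called, and the call of TEK was lost without WT replicate 1. PECAM1, CDH5, TAL1 and GATA1 had at most 6 reads in any library. The summed level of the 6 markers was 19.4 to 19.9 TPM in WT and 50.4 to 55.9 TPM in PDHB+/- libraries. Most of it came from KDR, whose mean was 17.7 TPM in WT and 45.8 TPM in PDHB+/- cells. The part of such cells in the level of EPAS1 was not tested.

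EGLN1 encodes PHD2, the main oxygen sensor for HIF1A, and is on chromosome 1 (231363751 to 231422287, minus strand, ENSG00000135766.9). EGLN1 was measured at 15.6 and 13.9 TPM in WT, at 19.7 and 17.2 TPM in clone 1, and at 22.2 and 20.1 TPM in clone 2. All PDHB+/- libraries were above both WT libraries, with clone 1 replicate 2 nearest to them. PDHB+/- cells differed from WT by a log2 fold change of 0.40 (standard error 0.11, adjusted p = 0.032). The call was lost with median-of-ratios scaling, at 0.26 and an adjusted p of 0.077, with quantile normalization (adjusted p = 0.067) and with no filter (adjusted p = 0.066). It was also lost when WT replicate 1 or 2, clone 1 replicate 1, or clone 2 replicate 1 or 2 was left out, with 0.32 to 0.48 and adjusted p of 0.054 to 0.22. EGLN1 shares 55.8% of its exonic bases with a second protein-coding gene model on the same strand, and reads of the pair could be split or dropped in counting. The pseudogene EGLN1P1 took 14 to 38 reads per library, 6.71% of the reads of both, and adding them gave 0.42.

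EGLN3 encodes PHD3, the most strongly hypoxia-induced of the prolyl hydroxylases, and is on chromosome 14 (33924227 to 34462774, minus strand, ENSG00000129521.15). EGLN3 stood at 10.8 and 12.3 TPM in WT, at 30.8 and 23.9 TPM in clone 1, and at 26.4 and 24.6 TPM in clone 2. Every PDHB+/- library was above both WT libraries, with clone 1 replicate 1 the highest. The log2 fold change of EGLN3 was 1.13 (standard error 0.12, adjusted p = 0.00092), which corresponds to a 2.29-fold ratio of mean TPM. The copy EGLN3P1 held 3.18% of the joint reads, and with them the value stayed at 1.13. EGLN1 was above EGLN3 in both WT libraries, whereas EGLN3 was above EGLN1 in each of the 4 PDHB+/- libraries. EGLN2, the remaining prolyl hydroxylase gene, was listed at 0.0884 to 0.570 TPM, from 1 to 6 reads, and was not tested. It shares 30.6% of its exonic bases with the read-through RAB4B-EGLN2 and another gene.

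VEGFA, the vascular endothelial growth factor and a classical HIF target, is on chromosome 6 (43770184 to 43786487, plus strand, ENSG00000112715.26). VEGFA was measured at 92.0 and 91.0 TPM in WT, at 53.8 and 35.6 TPM in clone 1, and at 50.5 and 40.7 TPM in clone 2. The WT libraries lay close together, and the PDHB+/- libraries were all lower. The WT mean was 91.5 ± 0.648 TPM (SD, n = 2), and PDHB+/- cells, at 45.1 ± 8.42 TPM (SD, n = 4), had 49.3% of it. In the fit VEGFA fell to a log2 fold change of -1.02 (standard error 0.16, adjusted p = 0.0045).

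BNIP3, a mitochondrial outer membrane protein that acts in mitophagy, is on chromosome 10 (131967684 to 131981967, minus strand, ENSG00000176171.12). BNIP3 levels were 138 and 133 TPM in WT, at 98.8 and 80.1 TPM in clone 1, and at 98.8 and 96.4 TPM in clone 2. The PDHB+/- libraries were all below WT, with 3 of them close together and clone 1 replicate 2 lower. BNIP3 fell to a log2 fold change of -0.54 (standard error 0.10, adjusted p = 0.0081), and without WT replicate 1 or 2 the adjusted p was 0.075 and 0.063. Its paralog BNIP3L, also a mitophagy receptor and HIF target, was at 37.0 and 35.1 TPM in WT and 31.6 to 35.7 TPM in PDHB+/- libraries, and its -0.11 did not pass (95% interval -0.29 to 0.07).

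ADM, which encodes the vasodilator peptide adrenomedullin, is on chromosome 11 (10305073 to 10307397, plus strand, ENSG00000148926.10). ADM amounted to 90.0 and 98.4 TPM in WT, at 192 and 130 TPM in clone 1, and at 185 and 121 TPM in clone 2. All PDHB+/- libraries were higher than WT, and within each clone replicate 1 was the higher. ADM rose by a log2 fold change of 0.70 (standard error 0.20, adjusted p = 0.035). With median-of-ratios scaling it was 0.56 and not called (adjusted p = 0.067), and with quantile normalization 0.55 and called (adjusted p = 0.032). With the scaling unchanged the call was also lost without a variance trend, with each clone as its own group and with no filter (adjusted p of 0.052, 0.059 and 0.088). Leaving out WT replicate 1 or 2, or replicate 1 of either clone, also lost the call, with 0.60 to 0.77 and adjusted p of 0.055 to 0.19.

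NDRG1, a gene induced by hypoxia, by metals and by differentiation, is on chromosome 8 (133237175 to 133302022, minus strand, ENSG00000104419.17). NDRG1 was found at 4.23 and 3.22 TPM in WT, at 8.25 and 8.93 TPM in clone 1, and at 7.62 and 7.93 TPM in clone 2. The 4 PDHB+/- libraries lay close together and well above both WT libraries. NDRG1 rose by a log2 fold change of 0.97 (standard error 0.12, adjusted p = 0.0019), from 58 to 181 reads per library. Of the related genes, NDRG2 rose by a log2 fold change of 0.93 (adjusted p = 0.012), NDRG4 fell to -0.77 (adjusted p = 0.0076), and NDRG3 stood at -0.07 and did not pass. The calls of NDRG2 and NDRG4 were lost without either WT library, with adjusted p of 0.060 to 0.088.

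CA9, a membrane carbonic anhydrase that is among the most specific markers of HIF1A activity, is on chromosome 9 (35673928 to 35681159, plus strand, ENSG00000107159.14). It was listed at 0.257 and 0.472 TPM in WT and at 0.315 to 0.674 TPM in PDHB+/- libraries, from 2 to 6 reads, with overlapping groups. ANKRD37, on chromosome 4 (185396021 to 185400628, plus strand, ENSG00000186352.9), was listed at 0.282 and 0.130 TPM in WT and at 0 to 0.865 TPM in PDHB+/- libraries, from 0 to 7 reads. The 0 was in clone 2 replicate 1 and allows up to 3 reads, which is 0.347 to 0.424 TPM depending on the library. A difference in these 2 genes was not detectable at this depth. Without the filter they gave 0.13 and 0.12, and neither passed. CA9 shares 35.7% of its exonic bases with ARHGEF39 and ANKRD37 40.3% with UFSP2, both on the other strand. Of the other carbonic anhydrases listed, CA2, the cytosolic enzyme, rose from 50.8 and 53.7 TPM to between 86.9 and 93.8 TPM (log2 fold change 0.79, adjusted p = 0.00048), and CA14, at -0.46, and CA12, at -0.02, did not pass.

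Ordered by level in TPM, which is per length, WT cells had HIF1A at 163 ± 10.2 TPM, BNIP3 at 136 ± 3.34 TPM, ADM at 94.2 ± 5.96 TPM and VEGFA at 91.5 ± 0.648 TPM (SD, n = 2). ADM and VEGFA overlapped there. EGLN1 at 14.7 ± 1.21 TPM, EGLN3 at 11.5 ± 1.07 TPM and NDRG1 at 3.72 ± 0.713 TPM followed without overlap. CA9 at 0.364 ± 0.152 TPM, EPAS1 at 0.307 ± 0.0102 TPM and ANKRD37 at 0.206 ± 0.108 TPM were at the bottom. The order of these genes was not resolved. ANKRD37 had at most 2 reads in WT, and 3 reads on it are 0.347 to 0.424 TPM, depending on the library. In PDHB+/- cells HIF1A at 198 ± 21.9 TPM and ADM at 157 ± 36.8 TPM overlapped, while BNIP3 at 93.5 ± 9.02 TPM and VEGFA at 45.1 ± 8.42 TPM stood apart (SD, n = 4). ADM and BNIP3 had thus changed places, and so had EGLN3 at 26.4 ± 3.08 TPM and EGLN1 at 19.8 ± 2.05 TPM.

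Each clone was also set against the same WT libraries, which both comparisons share. Leaving EPAS1 aside, EGLN3, NDRG1, VEGFA and BNIP3 were called in clone 1, 4 of 7 members, where 19.9% of all tested genes were called. In clone 2 these and EGLN1 were called, 5 of 7, where 20.0% of all tested genes were called. EPAS1 also passed in both clones, and there too the difference was built in. VEGFA gave -1.05 in clone 1 and -1.0 in clone 2, EGLN3 gave 1.17 and 1.08, and NDRG1 gave 1.03 and 0.90. Between the clones 0 of the 8 members, EPAS1 included, were called by limma, beside 0.0174% of all tested genes, and 0 had an unadjusted p under 0.05. Limma voom on the recovered reads also called 0, beside 0.0694%. The differences between the clones ranged from -0.13 for NDRG1 to 0.20 for EPAS1. The 95% intervals were -0.44 to 0.54 for VEGFA, -0.43 to 0.26 for EGLN3 and -0.69 to 0.54 for ADM, so differences of this size between the clones were not resolved. Without WT replicate 1, 1 of the 7 members was called in clone 1 and 0 in clone 2, beside 1.97% and 1.48% of all tested genes, and without WT replicate 2 the counts were again 1 and 0, beside 2.63% and 1.70%. The count in clone 2 was 1 without its replicate 1 and 2 without its replicate 2, beside 7.10% and 11.3% of all tested genes.

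**Figure D2:**
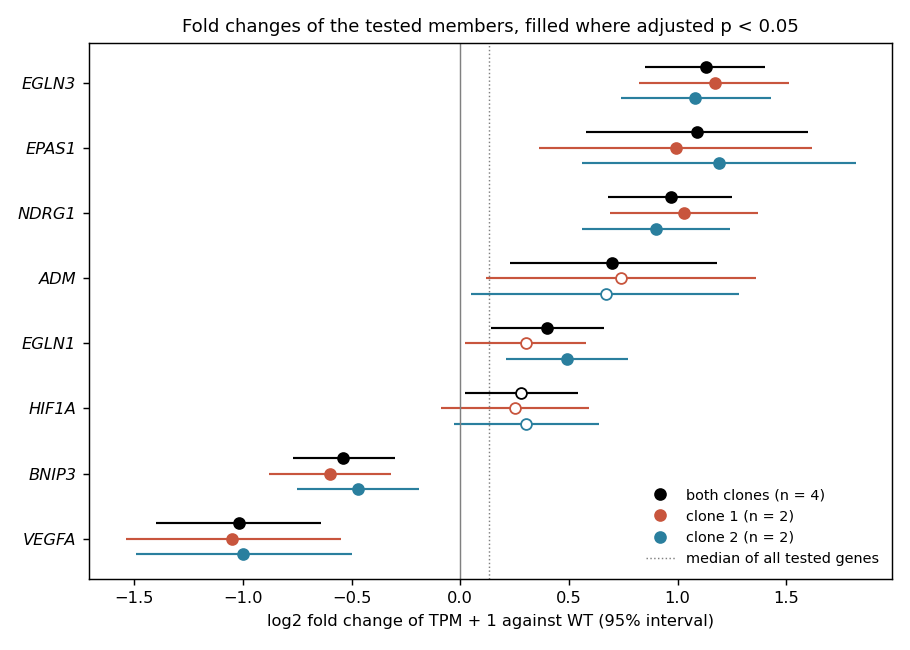
Log2 fold changes of TPM + 1 against WT (horizontal axis) for the 8 tested members, with 95% intervals, for both PDHB+/- clones together and for each clone, filled where the adjusted p passed 0.05. VEGFA, BNIP3, NDRG1 and EGLN3 are filled in all 3 comparisons, while ADM is filled only with both clones together, at 0.70. EPAS1 is also filled in all 3, but there a difference was built in.

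The libraries of the clones also differed by replicate number. For 6 of the 8 tested members, and for 5 of the 7 without EPAS1, both replicate 1 libraries of the clones lay above both replicate 2 libraries, for none the reverse. Of all tested genes, 36.8% lay that way and 18.6% the reverse. Against both WT libraries, ADM had a mean of 189 TPM in the replicate 1 libraries of the clones and 125 TPM in the replicate 2 libraries, which is 2.00 and 1.33 times the WT mean. The log2 fold change of ADM was 1.00 with replicate 1 and 0.41 with replicate 2, and that of HIF1A was 0.41 and 0.14. HIF1A was called with replicate 1 alone (limma adjusted p = 0.011) and not with replicate 2 (adjusted p = 0.13). VEGFA went the other way in size, with -0.80 and -1.24, and NDRG1 hardly moved, with 0.93 and 1.00. These fits were chosen after seeing the data, and the labels do not say what a replicate number marks.

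**Figure D3:**
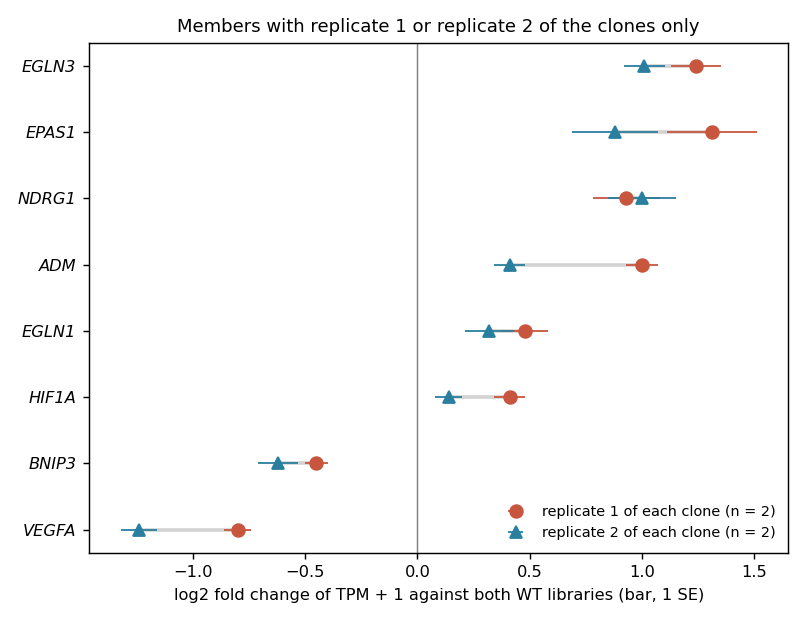
Log2 fold changes of TPM + 1 against both WT libraries (horizontal axis) when only replicate 1 (circles) or only replicate 2 (triangles) of each clone is used, with bars of 1 standard error. The pairs of points lie far apart for ADM, at 1.00 and 0.41, and for VEGFA, at -0.80 and -1.24, and close together for NDRG1.

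Other genes of the HIF machinery were read from a list of 13. Of the 12 tested, 5 were higher, 1 was lower and 6 did not pass, which is 6 of 12 called beside 31.3% of all genes with 1 TPM or more in both groups, with a median of 0.22 beside 0.13 over all tested genes. CITED2, which competes with HIF alpha for the coactivators p300 and CBP and is itself a HIF target, rose from 103 and 97.9 TPM to between 157 and 208 TPM (log2 fold change 0.83, adjusted p = 0.0046). CREBBP, which encodes CBP, rose by 0.50 (adjusted p = 0.0086), and ARNT2, a beta subunit, rose by 0.78 (adjusted p = 0.0020). HIF3A, an alpha subunit gene whose products include inhibitors of HIF, fell from 14.8 and 13.5 TPM to between 5.43 and 7.33 TPM (log2 fold change -1.09, adjusted p = 0.0015). ARNT, at 34.2 and 34.5 TPM in WT and 29.6 to 33.3 TPM in PDHB+/- libraries, and VHL, at 41.1 and 43.5 TPM and 45.6 to 56.5 TPM, did not pass, with -0.11 and 0.25. With median-of-ratios scaling the counts of the machinery list were 3 higher and 2 lower, with a median of 0.08. Without WT replicate 2 the list had 2 calls, where 9.58% of all tested genes were called, and CITED2 and CREBBP then had adjusted p of 0.053 and 0.091.

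A list of 30 further HIF targets, which includes the glucose transporter SLC2A3 and none of the glycolytic list, had a share of calls close to that of all tested genes. Of its 27 tested genes, 5 were higher, 4 were lower and 18 did not pass, and of the 25 with 1 TPM or more in both groups 36.0% were called, beside 31.3% of all such genes, with a median of -0.01. BHLHE40, a transcriptional repressor, rose from 62.5 and 66.5 TPM to between 155 and 199 TPM (log2 fold change 1.43, adjusted p = 0.00043). TFRC, the transferrin receptor for iron uptake, rose by 1.23 (adjusted p = 0.0093), and LOXL2, an enzyme that crosslinks collagen, rose by 1.01 (adjusted p = 0.0082). HILPDA, a lipid droplet protein, fell from 22.3 and 25.4 TPM to between 13.6 and 16.5 TPM (log2 fold change -0.64, adjusted p = 0.0055). ERO1A, the oxidase of the endoplasmic reticulum, gave -0.54 (adjusted p = 0.0044), and PLOD2, a collagen lysyl hydroxylase, gave -0.53 (adjusted p = 0.0074). With median-of-ratios scaling 3 of the 27 were higher and 8 lower, and 3 and 7 of the 25, with a median of -0.10. The list had 2 calls without WT replicate 1 and 4 without WT replicate 2, where 10.2% and 9.58% of all tested genes were called. BHLHE40 was called in both, TFRC in neither (adjusted p = 0.065 and 0.079), LOXL2, ERO1A and PLOD2 were lost without replicate 1 and HILPDA without replicate 2 (adjusted p of 0.053 to 0.079).

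The glycolytic HIF targets, which the choice of members leaves out, gave 4 higher and 2 lower of 19 tested, with 13 that did not pass. Of the 18 with 1 TPM or more in both groups, 27.8% were called, 4 higher and 1 lower, close to the 31.3% of all such genes. Their median was 0.15, and 0.01 with median-of-ratios scaling, which gave 3 higher and 3 lower. PFKFB3, which makes the activator of phosphofructokinase, rose from 23.0 and 23.4 TPM to between 44.3 and 51.6 TPM (log2 fold change 0.99, adjusted p = 0.00044). ALDOC, an aldolase, rose by 0.70 (adjusted p = 0.013), and the glucose transporter SLC2A1 rose by 0.62 (adjusted p = 0.0032). SLC16A3, the lactate exporter MCT4, fell from 5.59 and 4.25 TPM to between 0.766 and 1.17 TPM (log2 fold change -1.57, adjusted p = 0.0010), and since it passed the minimum only through the WT libraries that difference was built in. LDHA, which turns pyruvate into lactate, fell from 166 and 144 TPM to between 103 and 118 TPM (log2 fold change -0.51, adjusted p = 0.0075). Without WT replicate 1 LDHA had an adjusted p of 0.081, and without WT replicate 2 ALDOC had 0.12. Of the 18 with 1 TPM or more in both groups, 11 were called with replicate 1 of each clone alone, 10 higher and 1 lower. There 38.7% of all tested genes were called. With replicate 2 alone 8 of the 18 were called, 4 higher and 4 lower, where 32.2% of all tested genes were. Quantile normalization and limma voom on the recovered reads also gave 4 higher and 4 lower.

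**Figure D4:**
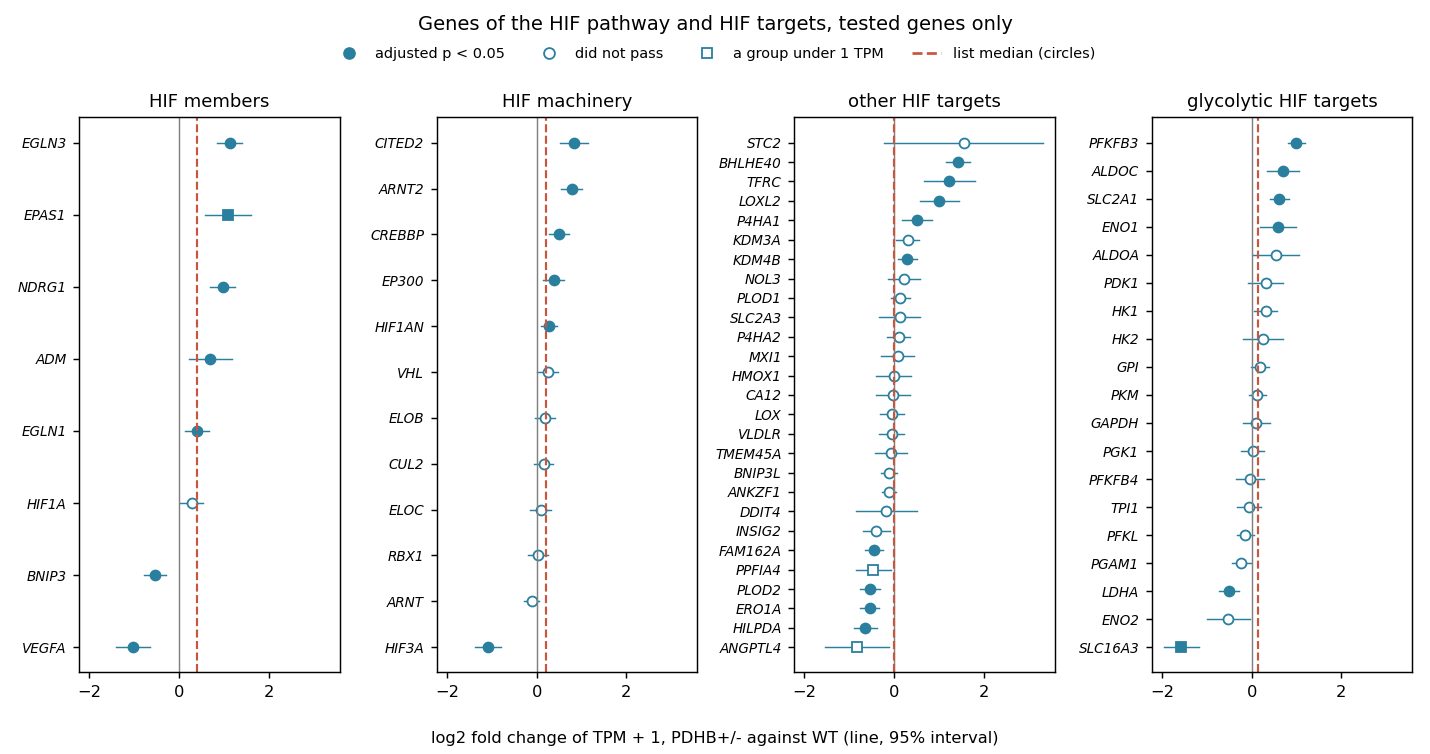
Log2 fold changes of TPM + 1 in PDHB+/- against WT (horizontal axes) for the tested members, the HIF machinery, other HIF targets and glycolytic HIF targets, with 95% intervals as lines, filled points where the adjusted p passed 0.05, squares for genes with a group mean under 1 TPM and a dashed line at the median of the circles. Each list has filled circles on both sides of 0, and the medians are 0.40, 0.22, -0.01 and 0.15.

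For VEGFA the receptors and the other ligands were read as well. Of the 9 genes, 6 were tested, with 3 higher and 2 lower, beside 22.7% higher and 8.59% lower among all genes with 1 TPM or more in both groups. KDR, the main signalling receptor of VEGFA, rose from 18.0 and 17.5 TPM to between 40.1 and 50.8 TPM (log2 fold change 1.32, adjusted p = 0.00043). FLT1, a receptor that binds VEGFA tightly and signals weakly, rose by 0.62 (adjusted p = 0.015), and the co-receptor NRP1 rose by 0.69 (adjusted p = 0.0073). The co-receptor NRP2 gave -0.60 (adjusted p = 0.017), the ligand VEGFB gave -0.38 (adjusted p = 0.019), and FLT4, at -0.11, did not pass. KDR was called also without either WT library, whereas FLT1, NRP1, NRP2 and VEGFB were then not called (adjusted p of 0.056 to 0.15), and FLT1 was also lost with replicate 2 of each clone alone (adjusted p = 0.052). VEGFC, VEGFD and PGF were below 1 TPM in every library. VEGFA and VEGFB were thus lower in the PDHB+/- libraries, in which KDR, FLT1 and NRP1 were higher. KDR marks mesoderm as well as endothelium. Of the 6 mesoderm and primitive streak markers 4 were tested. PDGFRA rose, a call that was lost without either WT library, and MIXL1 did not pass. HAND1 and TBXT passed the minimum only through the PDHB+/- libraries, so that their higher levels there were built in. TBX6 and MESP1 were too low to test. TBX6 went the other way, with means of 1.61 TPM in WT and 0.657 TPM in PDHB+/- cells and no overlap between the groups. MESP1 overlapped between them. The summed level of the list was 1026 to 1057 TPM in WT and 964 to 1097 TPM in PDHB+/- libraries. Most of it came from MIXL1, whose mean was 1031 TPM in WT and 1002 TPM in PDHB+/- cells. Of the 7 ESC markers 4 rose and 1 fell, or 2 and 1 with median-of-ratios scaling, beside 31.3% of all genes with 1 TPM or more in both groups called. Fewer ESC markers were called without either WT library, where the share of all tested genes called also fell. The summed level of the ESC markers was 1765 to 1820 TPM in WT and 1923 to 2345 TPM in PDHB+/- libraries. Most of it came from TDGF1, with means of 979 TPM in WT and 999 TPM in PDHB+/- cells, and LIN28A, with 661 and 923 TPM. Far lower means were those of POU5F1, at 2.21 and 7.78 TPM, NANOG, at 6.69 and 20.6 TPM, and ZFP42, at 16.2 and 2.3 TPM. The part of such cells in the levels of KDR, VEGFA and the other genes was not tested.

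Adrenomedullin signals through the receptor CALCRL together with RAMP2 or RAMP3. CALCRL had 0 to 10 reads per library, at most 0.299 TPM, RAMP3 had 0 reads in all 6 libraries, which allows up to 3 reads in each, and RAMP1 had 0 to 3 reads. RAMP2 was at 1.56 to 2.83 TPM and did not pass. CALCR, the calcitonin receptor, which pairs with RAMP proteins to bind amylin, rose from 41.1 and 41.4 TPM to between 53.5 and 81.2 TPM (log2 fold change 0.64, adjusted p = 0.025), a call that was lost with median-of-ratios scaling (adjusted p = 0.051), without either WT library (adjusted p = 0.13), without clone 2 replicate 1 (adjusted p = 0.054) and with no filter (adjusted p = 0.065). ACKR3, a scavenging receptor for chemokines and adrenomedullin, was at 264 and 273 TPM in WT and at 174 to 269 TPM in PDHB+/- libraries and did not pass, with -0.34 (95% interval -0.74 to 0.07). ADM2, a related peptide, was at 5.71 and 5.02 TPM in WT and spread from 1.78 to 9.93 TPM in PDHB+/- libraries, with -0.36, and did not pass.

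**Figure D5:**
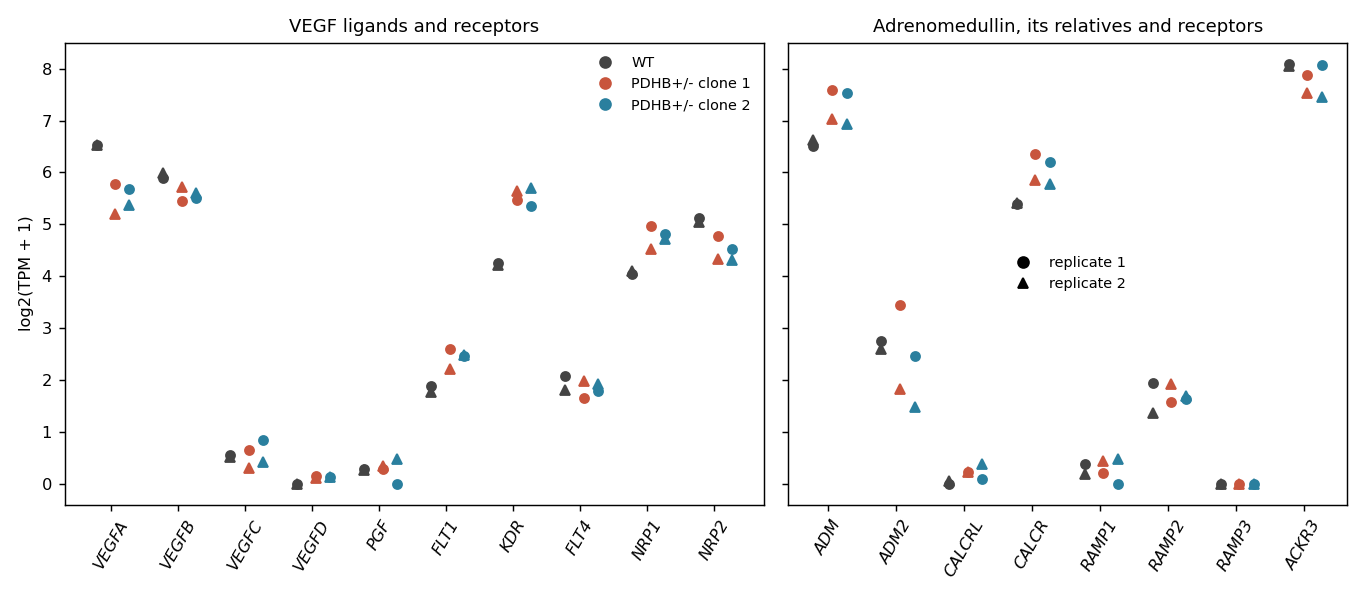
Levels as log2(TPM + 1) in each library (vertical axis) for VEGFA with the other VEGF ligands and receptors, and for ADM with its relatives and receptors, coloured by group, with circles for replicate 1 and triangles for replicate 2. KDR lies at 17.5 to 18.0 TPM in WT and 40.1 to 50.8 TPM in PDHB+/- libraries, the reverse of VEGFA, and CALCRL and RAMP3 lie at or near 0.

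The tested genes most like each called member were found by the root mean square difference of log2(TPM + 1) over the 6 libraries, each gene centred on its mean. They were ERRFI1 and GSTA1 for VEGFA, with ERRFI1 at 0.0679, GAB2 and GNAZ for BNIP3, with GAB2 at 0.0380, and HLCS and WDR3 for EGLN1, with HLCS at 0.0272. TRIB1 and TRIM2 were nearest to EPAS1, C8orf58 and CYP1B1 to EGLN3, LOC100288211 and WFS1 to ADM, and LOC105377294 and DTX3L to NDRG1, with smallest values of 0.0626, 0.0353, 0.0617 and 0.0422. These genes were picked as the nearest of 17291, the members among them. No member could therefore lie nearer, and a larger value for a member says nothing about how alike the members are. The nearest member was HIF1A to EGLN1 at 0.0921, EGLN3 to NDRG1 at 0.211, EPAS1 to ADM at 0.231, and BNIP3 to VEGFA at 0.257. EPAS1, whose difference from WT was built in, and EGLN3 were nearest to one another at 0.184. These are likenesses over 6 libraries of which 4 are heterozygous for PDHB, and they are descriptions without a test.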

How the data were processed

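Reads of the 6 libraries were aligned by the authors to GRCh38 (hg38). The submitters' processing notes list Bowtie2 2.3.5.1, FastQC 0.12.1 and featureCounts, and the deposited values are TPM, which the authors computed from their counts. The counting annotation and strand setting are not given in the sources used here. In each column 1 unnamed line, a total of 1000000, was dropped, and 0 columns were left unused. All 10 members were matched by symbol in the 49278 named genes. Read numbers were worked out from the TPM values, each being whole reads over a gene length (within 0.02 reads, for 100% of 34899 genes above 0). At or under 3 reads a level was not told from 0, which covers counting error only.

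TPM values were analysed as log2(TPM + 1) with limma 3.58.1 (lmFit, eBayes with a trend) in R 4.3.3, two-sided, over the 17291 genes averaging 1 TPM or more, with Benjamini-Hochberg adjustment and a threshold of 0.05. WT (n = 2) was compared with PDHB+/- (n = 4) in 2 groups, and the clones in 3 groups. The authors name DESeq2, which needs counts and was not run. Where WT is left with 1 library, it is assumed to vary like the other groups. Scripts were tested on simulated data. Members and lists were chosen with earlier results of these data known. Named genes were all members, PDHB, from the machinery, target and glycolytic lists the 3 largest rises and falls among called genes whose libraries did not overlap, and the VEGF and adrenomedullin receptors and the paralogs of members. ARNT, VHL and the markers were added for context. Other settings tried were quantile normalization and median-of-ratios scaling, a pseudocount of 0.1, eBayes without the trend, tests with no filter or with a mean of 5 TPM or more, a block for the replicate number, other groupings, and fits without each library in turn. Limma voom on the recovered reads, 1 replicate of each clone, added reads of gene copies, and counts over genes with 1 TPM or more in both groups were chosen after seeing the data. Positions came from GENCODE v44 and promoters from RefSeq (GRCh38.p14). Figures were drawn with matplotlib 3.10.9 in Python 3.11.15.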

Additional observations from a re-analysis of the deposited data

Results flagged for a closer look

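Among 47 genes whose 4 PDHB+/- libraries were examined for a library that stands apart by Dixon's criterion, 2 had one, and about 2.35 would be found by chance. BNIP3 was at 80.1 TPM in clone 1 replicate 2, against 96.4 to 98.8 TPM in the other PDHB+/- libraries. NDRG4 was at 49.3 TPM in clone 2 replicate 1, against 34.3 to 36.7 TPM in the others. Both genes lay below both WT libraries in each of the 4.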

How the results depend on the processing

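For the tested members other than EPAS1, 105 of 126 values under an alternative kept their direction and call, 19 kept the direction and were not called, 2 kept it and became called, and 0 changed direction. VEGFA, NDRG1 and EGLN3 were called under all 18 alternatives each, with VEGFA from -1.24 to -0.80, NDRG1 from 0.81 to 1.13 and EGLN3 from 0.99 to 1.24. EGLN1 was not called under 9 of 18 alternatives and ADM under 8 of 18. With median-of-ratios scaling their adjusted p was 0.077 and 0.067, and with no filter 0.066 and 0.088. The filter of at least 5 TPM drops EPAS1.

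The number of called members in PDHB+/- against WT, 7 with EPAS1 and 6 without it, fell to 3 without either WT library, where the share of all tested genes called also fell, from 31.7% to 10.2% without WT replicate 1 and 9.58% without WT replicate 2, and it ranged from 3 to 7 when a library was left out. Without either WT library VEGFA, NDRG1 and EGLN3 were left, and EPAS1 and BNIP3 had adjusted p of 0.067 and 0.075 without WT replicate 1 and 0.072 and 0.063 without WT replicate 2. Leaving EPAS1 aside, the count of 4 for clone 1 became 2 with no filter, where the share of all tested genes called fell to 5.58%. This count fell as well without either WT library, as did that share. The count of 5 for clone 2 became 2 with no filter, where the share of all tested genes called fell to 5.14%. That count fell as well without either WT library and without either replicate of clone 2, as did the share. When a PDHB+/- library was left out, the count of 6 in the machinery ranged from 4 to 6 and that of 9 in the other targets from 7 to 8. Both counts were also lower without either WT library, where WT was left with 1 library. With all 6 libraries the count of the other targets ranged from 7 with no filter to 12 with limma voom on the recovered reads. It was 11 with median-of-ratios scaling or quantile normalization. With replicate 1 of each clone alone, 12 glycolytic targets were called instead of 6, 10 higher and 2 lower, and with replicate 2 alone 9, 4 higher and 5 lower. Leaving out libraries leaves fewer samples. For the other changes the cause was not tested.

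Deviations from the group means of libraries with the same number correlated at 0.35 between the clones and at -0.01 between WT and either clone. The replicate number was therefore not taken to pair WT with the clones, while the clones varied together by number. With the replicate number as a block, 8 members were called with EPAS1 and 7 without it, HIF1A with a limma adjusted p of 0.021 and the others as before. Without EPAS1, 6 were called in clone 1 and 6 in clone 2. Between the clones 0 were called. Among genes with 1 TPM or more in both groups, 6 were called in the machinery, 9 in the other targets and 8 in the glycolytic targets. The share of all tested genes called rose as well, to 36.2%, and to 25.6% in clone 1 and 26.0% in clone 2.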
